A study of Mus musculus with 48 samples.

Results

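The cytochrome P450 genes of families 1 to 4 were examined in liver and in 2 fat tissues of mice whose hepatocytes carry or lack a deletion of angiotensinogen. Members were all genes whose Ensembl identifier carries a mouse symbol of the form Cyp, a family number from 1 to 4, a subfamily letter and a gene number. This rule, which uses names and no measured value, gave 80 genes of the 56748 identifiers in each count file. Family 1 has 3 members, family 2 has 48, family 3 has 9 and family 4 has 20. The largest subfamilies are 2c with 15 genes, 3a and 4f with 9 each, and 2d, 2j and 4a with 8 each.

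These genes encode heme enzymes of the endoplasmic reticulum that add an oxygen atom to their substrates, with electrons passed on by P450 oxidoreductase and cytochrome b5. Hepatocytes hold most of them, where they oxidise drugs, steroids, bile acids and fatty acids, and the nuclear receptors CAR, PXR and PPAR alpha, the receptor AHR and the liver factor HNF4 alpha switch many of them on. In mouse liver several members are made mostly in males or mostly in females under the control of growth hormone pulses acting through STAT5.

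The mice were male littermates. The knockout group (hepAGT-/-, here KO) carries a hepatocyte deletion of angiotensinogen (Agt), from which renin cuts the angiotensins, and the controls are hepAGT+/+ (here WT); the Cre driver, strain and age are not given in the sources used here. For 12 weeks every group was fed a Western diet, in which milk fat made up 21% and cholesterol 0.2%, so no group on ordinary chow was measured. Cages stood either at 20 to 22 °C (room temperature, RT) or at 30 °C (thermoneutrality, TN). Liver, brown fat (BAT) and epididymal white fat (eWAT) gave 48 libraries in 12 groups of 4, called WT RT, KO RT, WT TN and KO TN within each tissue, and the labels call the libraries of a group biological replicates.

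Total counts per library were between 23.7 and 36.5 megacounts (M) for liver, 25.3 and 39.4 M for BAT, and 28.7 and 43.7 M for eWAT. Agt itself ran from 276 to 435 counts per megacount of the library (CPM) in liver WT RT and from 143 to 202 CPM in KO RT, and from 309 to 504 CPM in WT TN against 125 to 207 CPM in KO TN, so the genotypes did not overlap at either temperature, and Agt counts remained in every KO library. The 12 hepatocyte markers summed to between 66450 and 109100 CPM in the liver libraries, none of them at 0. Among the fat libraries, eWAT WT RT replicate 18 stood apart by 979 CPM of epididymis markers, and the muscle markers reached 9358 CPM in BAT KO TN replicate 2. Levels below are CPM after edgeR's TMM scaling, and mean ± SD refers to 4 libraries. Changes are log2 fold changes from edgeR, with the standard error (SE), and a member was called when its quasi-likelihood p, with Benjamini-Hochberg adjustment across every gene tested in that tissue, was under 0.05.

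The P450 genes took a median of 2.52% of all liver counts, from 2.19% to 3.17% over the 16 libraries. The group means of that share were 2.65% ± 0.403 in WT RT, 2.54% ± 0.131 in KO RT, 2.58% ± 0.261 in WT TN and 2.42% ± 0.124 in KO TN, and the 4 ranges overlapped. In liver 58 of the 80 members passed the filter on low counts, 52 had a mean of at least 1 CPM, 29 had a mean of at least 100 CPM, and 11 had no count in any of the 16 libraries. Those 11 include 4 of the 8 Cyp2j genes, 2 of the 5 Cyp2b genes, Cyp2w1 and Cyp4x1.

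Cyp2e1, which oxidises ethanol, acetone and small solvents, stood first, with a mean of 8534 CPM over the 16 liver libraries and 33.5% of all P450 counts. Scaled by exon length, its level was 3954 CPM per kilobase, ahead of Cyp3a11, the main drug-oxidising member of its subfamily, at 617 CPM per kilobase, Cyp2d26 at 538, Cyp2c29 at 501, Cyp3a25 at 449, Cyp2d9 at 414 and Cyp2f2 at 393 CPM per kilobase. Below the first gene the order is close: the lowest-to-highest CPM ranges over libraries of neighbours such as Cyp2f2 (465 to 1145 CPM) and Cyp2d10 (483 to 795 CPM) overlapped. By share of P450 counts, the single Cyp2e1 was followed by subfamily 2c with 17.1%, 3a with 16.8%, 2d with 11.9%, 2a with 5.79% and 4a with 4.26%. Cyp2e1 was at 9006 ± 1550 CPM in WT RT, 8396 ± 538 CPM in KO RT, 9025 ± 2153 CPM in WT TN and 7708 ± 518 CPM in KO TN. These groups overlapped, and the genotype difference in Cyp2e1 was not called at either temperature.

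Other members described here span several orders of level. Of family 1, Cyp1a2, the main caffeine oxidase, ran from 200 to 511 CPM in liver, whereas Cyp1a1, its relative induced through AHR, ran from 0.150 to 1.55 CPM and Cyp1b1 from 0 to 3.28 CPM. In the 2c subfamily, known for arachidonic acid epoxides, Cyp2c29 ran from 1147 to 2330 CPM, Cyp2c50 from 552 to 1027 CPM and Cyp2c54 from 170 to 487 CPM, and Cyp2c55 was at most 5.28 CPM. Cyp3a11 was at 3530 ± 720 CPM in WT RT, 2614 ± 314 CPM in KO RT, 3382 ± 396 CPM in WT TN and 3038 ± 819 CPM in KO TN. Cyp3a13 ran from 131 to 242 CPM and Cyp3a25 from 614 to 1253 CPM. Cyp3a41a, a gene made mostly in females, had counts in only 2 of the 16 libraries, and 90.8% of its 100-base windows are also found in another gene. The leukotriene hydroxylases Cyp4f14 and Cyp4f15 ran from 120 to 221 CPM and from 145 to 259 CPM, Cyp2d22 from 218 to 317 CPM and Cyp2u1 from 8.46 to 53.4 CPM. None of these genes was called with edgeR for genotype or temperature in liver.

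**Figure D1:**
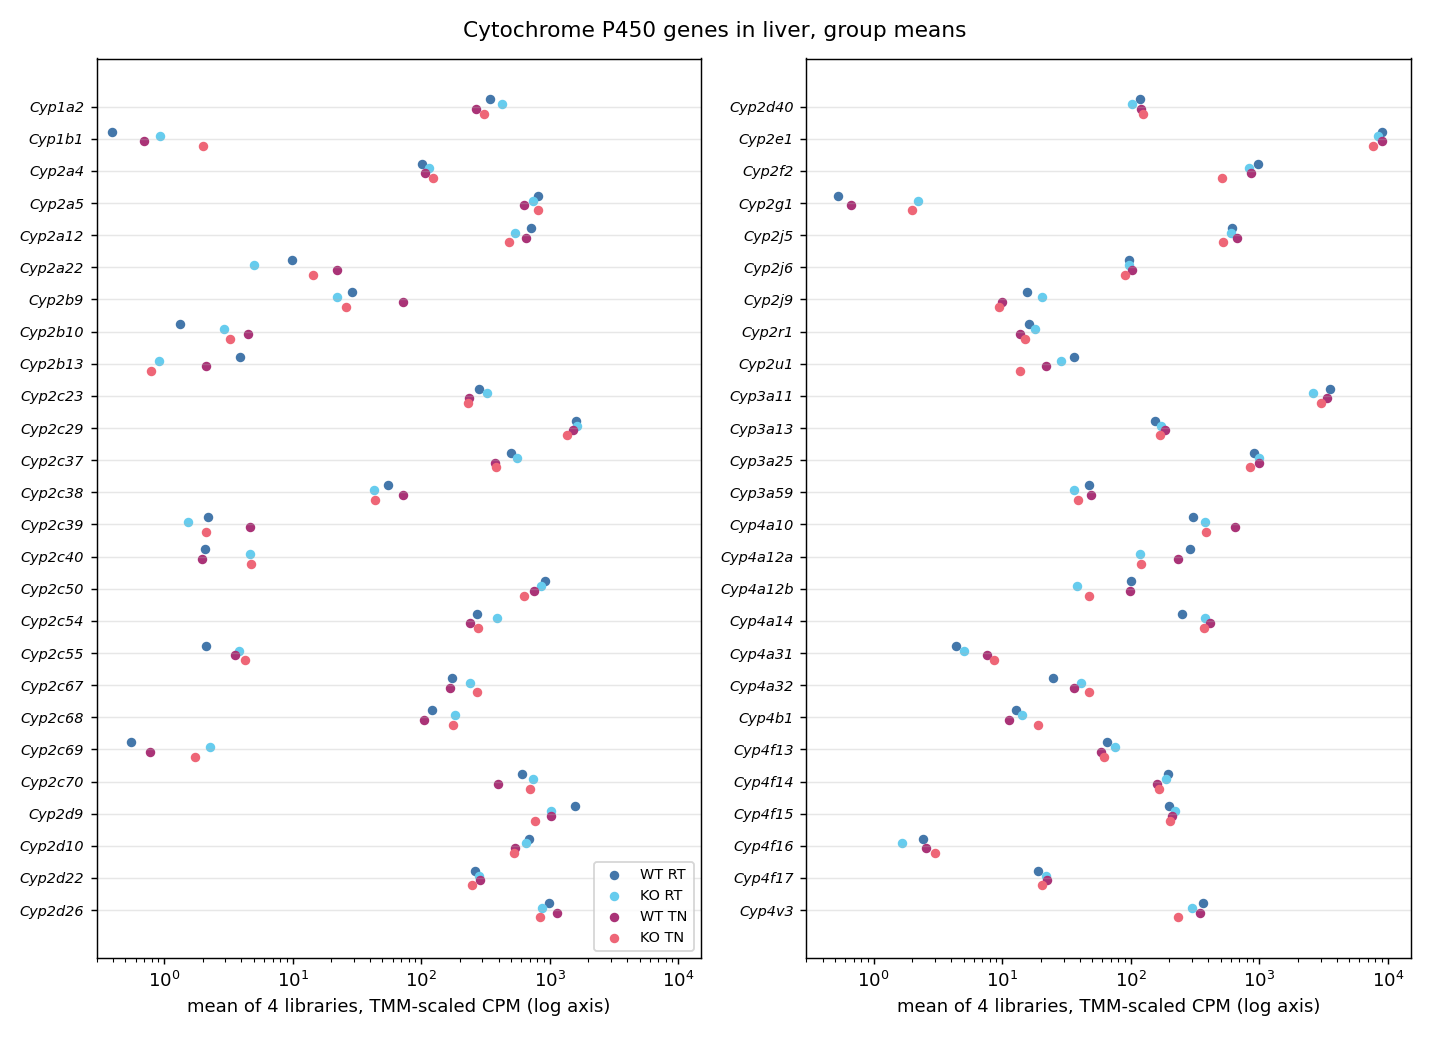
Mean liver level of each P450 gene with at least 1 CPM (52 genes), in TMM-scaled CPM on a log axis, with 1 point for the mean of 4 libraries in each of the groups WT RT, KO RT, WT TN and KO TN. The points of Cyp2e1, with a mean of 8534 CPM over the 16 libraries, lie farthest to the right, and those of Cyp2g1, Cyp1b1 and Cyp2c69 among the farthest to the left.

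At thermoneutrality 4 members differed between KO and WT liver: Cyp2c68 and Cyp2c67 rose in KO, and Cyp2f2 and Cyp4v3 fell. These are 4 called of 58 members tested, beside 3.18% of the 17594 genes tested in this comparison (1.34% up, 1.85% down). Without adjustment, 14 members had a p under 0.05, beside 17.6% of all genes tested. Of the 14, 5 had a higher and 9 a lower mean in KO. Over the 58 members the median log2 change was -0.09, against 0.05 over all genes tested.

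Cyp2c67 and Cyp2c68 belong to a cluster of Cyp2c genes on chromosome 19, a subfamily known for oxidising arachidonic acid and drugs. Their promoter windows are shown because both of these neighbours were called higher in KO. Each window runs from 250 bases before to 50 bases after the RefSeq transcript start on the minus strand (build GRCm38.p6). Cyp2c67 is taken from chr19:39648993-39649292 and Cyp2c68 from chr19:39741052-39741351, each printed 5′ to 3′ with capitals marking the motifs searched.
Cyp2c67: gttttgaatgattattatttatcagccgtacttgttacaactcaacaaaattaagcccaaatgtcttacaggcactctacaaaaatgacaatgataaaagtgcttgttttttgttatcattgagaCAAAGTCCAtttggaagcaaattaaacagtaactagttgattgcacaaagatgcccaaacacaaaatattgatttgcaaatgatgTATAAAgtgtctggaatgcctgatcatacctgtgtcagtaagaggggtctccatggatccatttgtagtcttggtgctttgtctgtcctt
Cyp2c68: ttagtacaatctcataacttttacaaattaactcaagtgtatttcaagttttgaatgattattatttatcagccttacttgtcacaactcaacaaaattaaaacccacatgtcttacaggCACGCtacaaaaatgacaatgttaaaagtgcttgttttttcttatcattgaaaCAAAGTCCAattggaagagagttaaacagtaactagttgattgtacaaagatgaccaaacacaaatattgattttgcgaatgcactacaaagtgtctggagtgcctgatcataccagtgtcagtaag
Both windows hold CAAAGTCCA, a sequence bound by HNF4 alpha, at positions -125 to -117 of Cyp2c67 and -77 to -69 of Cyp2c68, counted from the RefSeq transcript start. These positions depend on the start used. In the GENCODE coordinates given below, Cyp2c68 starts close to the 3′ end of its window, so the difference in position is not a result. Only Cyp2c67 has TATAAA in its window, and only Cyp2c68 has the core of the AHR element, printed here as CACGC on the strand shown. Aligned locally, the windows were identical at 230 of 254 aligned positions (90.6%).

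Cyp2c68 (chr19:39688834-39741054, protein coding) was at 121, 84.0, 113 and 102 CPM in WT TN replicates 1, 6, 7 and 24, and at 167, 155, 169 and 220 CPM in KO TN replicates 2, 4, 5 and 22. Every KO library lay above every WT library. The log2 change was 0.76 (SE 0.16), with an edgeR adjusted p of 0.0118. Cyp2c67 (chr19:39608842-39649051) was at 201, 160, 134 and 175 CPM in the same WT TN libraries and at 250, 221, 348 and 266 CPM in KO TN, again without overlap. Its log2 change was 0.70 (SE 0.19, edgeR adjusted p 0.0453), and this call was lost in 11 of 21 alternatives, with adjusted p up to 0.128. Of the 100-base windows of Cyp2c67 transcripts, 23.7% are also found in another gene, mostly Cyp2c69, and of Cyp2c68 19.8%, mostly Cyp2c40, so reads could be divided between these genes and both values are uncertain to that extent. Those relatives had low counts in liver: the highest of the 16 libraries had 3.31 CPM of Cyp2c69 and 13.5 CPM of Cyp2c40. Of their own windows, 35.4% and 34.4% are also found in another gene. Their low counts come from the same counting and do not show how many reads were shared. The windows common to Cyp2c67 and Cyp2c68 are not reported here, so the 2 calls may not be independent.

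Cyp2f2, which oxidises naphthalene and other aromatic compounds in liver and airway, and Cyp4v3, a fatty acid omega-hydroxylase, were the called members that fell. Their promoter windows are printed for comparison with the previous pair, Cyp2f2 from chr7:27119705-27120004 on the plus strand and Cyp4v3 from chr8:45333114-45333413 on the minus strand.
Cyp2f2: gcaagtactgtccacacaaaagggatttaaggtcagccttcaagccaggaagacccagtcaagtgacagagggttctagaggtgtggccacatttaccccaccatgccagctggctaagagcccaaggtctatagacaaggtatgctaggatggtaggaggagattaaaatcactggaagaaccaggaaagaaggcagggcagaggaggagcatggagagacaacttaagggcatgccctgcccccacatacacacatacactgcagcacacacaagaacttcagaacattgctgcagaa
Cyp4v3: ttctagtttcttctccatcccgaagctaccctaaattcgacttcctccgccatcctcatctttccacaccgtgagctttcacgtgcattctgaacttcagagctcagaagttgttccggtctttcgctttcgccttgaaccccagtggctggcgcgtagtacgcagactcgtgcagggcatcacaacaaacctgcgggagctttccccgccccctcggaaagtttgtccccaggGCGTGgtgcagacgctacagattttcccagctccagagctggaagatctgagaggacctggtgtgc
None of the 7 motifs searched was found in the window of Cyp2f2, and that of Cyp4v3 holds 1 AHR core, GCGTG.

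Cyp2f2 (chr7:27119909-27133660) was at 1033, 980, 785 and 671 CPM in WT TN replicates 1, 6, 7 and 24 and at 560, 521, 465 and 496 CPM in KO TN replicates 2, 4, 5 and 22. The KO libraries were the 4 lowest of the 8, and they were also below the 4 KO RT libraries, which ran from 602 to 1000 CPM. The genotype change was -0.76 (SE 0.17, edgeR adjusted p 0.0175). At RT it was -0.23 and not called, and the interaction of genotype and temperature was -0.54 (edgeR adjusted p 0.65), so a difference between the temperatures was not shown. Cyp4v3 (chr8:45304944-45333216) was at 401, 372, 323 and 293 CPM in WT TN and at 206, 254, 263 and 204 CPM in KO TN, without overlap. Its log2 change was -0.58 (SE 0.13, edgeR adjusted p 0.0185). At RT the change of Cyp4v3 was -0.28, with an unadjusted edgeR p under 0.05, and it was not called. Its interaction was -0.30 and not called, so here too a difference between the temperatures was not shown. Of the 100-base windows of Cyp2f2, 4.05% are also found in Gm15883, and of Cyp4v3 5.77% in Gm45753, so these counts are uncertain to that extent if reads were shared or strand was not used. Without WT TN replicate 6 none of the 4 members was called, and without WT TN replicate 24 there were 6 calls.

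**Figure D2:**
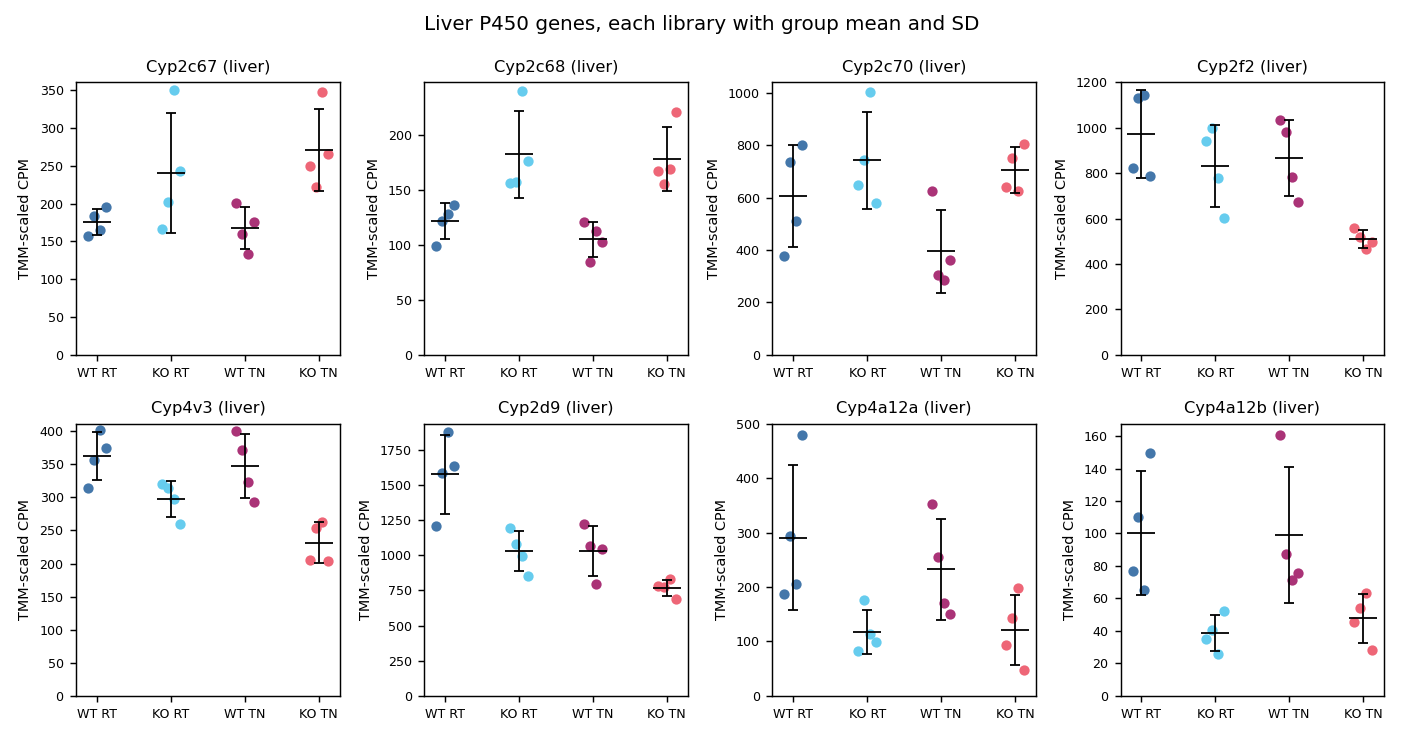
Each liver library of 8 P450 genes in TMM-scaled CPM, in the groups WT RT, KO RT, WT TN and KO TN, with the group mean (dash) and SD (bar). In KO TN, Cyp2c67 and Cyp2c68 lie above, and Cyp2f2 and Cyp4v3 below, all 4 WT TN libraries.

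Of the 58 members, 8 had groups that did not overlap at TN, beside 12.5% of all genes tested. The other 4 were not called with edgeR. Cyp2c70, which makes the muricholic acids of mouse bile, was at 625, 304, 287 and 362 CPM in WT TN and at 642, 753, 626 and 806 CPM in KO TN. Its KO libraries lay only just above the highest WT library, replicate 1, and the log2 change was 0.84 (SE 0.26, edgeR adjusted p 0.0874). Cyp4b1, an omega-hydroxylase best known from lung, was at 11.2 ± 3.05 CPM in WT TN and 18.9 ± 3.94 CPM in KO TN (edgeR adjusted p 0.0629). Cyp2j5, an arachidonic acid epoxygenase, was at 671 ± 38.2 and 520 ± 43.5 CPM (edgeR adjusted p 0.0874). Cyp4a12b was at 98.9 ± 41.9 and 47.7 ± 15.1 CPM (edgeR adjusted p 0.117). DESeq2 called 8 members here, the 4 above and Cyp2c70, Cyp4b1, Cyp2j5 and Cyp2d26. The share of all genes called with DESeq2 is not reported here. The edgeR shares are therefore no measure for this count or the DESeq2 counts below.

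In KO TN the 12 markers of Kupffer cells and macrophages summed to between 427 and 1104 CPM, against 287 to 442 CPM in WT TN, ranges that just overlapped, and 2 of the 12 were called higher. Endothelial markers ran from 289 to 460 CPM in KO TN and from 219 to 356 CPM in WT TN, and adipocyte markers from 133 to 302 CPM and from 270 to 376 CPM, with 0 called in either list. The 10 skeletal muscle markers were near 0 and apart, at 1.69 to 2.41 CPM in KO TN and 0.285 to 0.521 CPM in WT TN, with 0 called. The hepatocyte markers ran from 92310 to 109100 CPM in KO TN and from 82850 to 106600 CPM in WT TN, and none was called. Whether the makeup of the tissue had a part in the P450 changes was not tested. In whole tissue, fewer cells of a type and less RNA per cell cannot be told apart.

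At room temperature 0 of 58 members were called between KO and WT liver with edgeR, beside 0.0853% of all genes tested. An unadjusted p under 0.05 was found in 10 members, beside 10.2% of all genes tested. DESeq2 called 3, namely Cyp2d9, Cyp2c68 and Cyp4a12b. In 6 members the groups did not overlap, beside 5.83% of all genes tested. Cyp2d9, a testosterone hydroxylase made mostly in males, was at 1204, 1582, 1876 and 1633 CPM in WT RT replicates 11, 12, 15 and 18 and at 1190, 1078, 997 and 850 CPM in KO RT replicates 9, 10, 16 and 19. The highest KO library fell just short of the lowest WT library, and the log2 change was -0.61 (SE 0.15, edgeR adjusted p 0.126). At TN its change was -0.43 (edgeR adjusted p 0.129).

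Cyp4a12a and Cyp4a12b, omega-hydroxylases that turn arachidonic acid into a vasoconstrictor, are made mostly in males and were among the 6 members whose groups did not overlap at RT. Cyp4a12a was at 187, 294, 205 and 479 CPM in WT RT and at 83.2, 175, 113 and 99.1 CPM in KO RT (log2 change -1.31, SE 0.45, edgeR adjusted p 0.326). Cyp4a12b was at 76.9, 110, 65.0 and 150 CPM in WT RT and at 35.3, 40.5, 25.7 and 52.5 CPM in KO RT (log2 change -1.38, SE 0.35, edgeR adjusted p 0.153). Neither pair of groups overlapped, and neither gene was called. The transcripts of these neighbours share 35.8% and 36.2% of their 100-base windows, so their counts could be mixed and they are not independent of each other. At TN the changes were -0.95 for Cyp4a12a (edgeR adjusted p 0.296), whose groups overlapped, and -1.05 for Cyp4a12b.

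Cyp2c68 had every KO library above every WT library at RT too, at 156, 157, 240 and 176 CPM against 98.4, 122, 128 and 136 CPM in WT (log2 change 0.59, SE 0.16, edgeR adjusted p 0.148). Cyp2a12, which hydroxylates bile acids, was at 719 ± 54.8 CPM in WT RT and 539 ± 93.4 CPM in KO RT (log2 change -0.42, edgeR adjusted p 0.311). Cyp2g1, a steroid hydroxylase best known from the nose, was a low gene in liver. It was at 0.531 ± 0.269 CPM in WT RT and 2.19 ± 0.618 CPM in KO RT (edgeR adjusted p 0.34). Its log2 change was 2.05 at RT and 1.59 at TN, and neither was called.

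**Figure D3:**
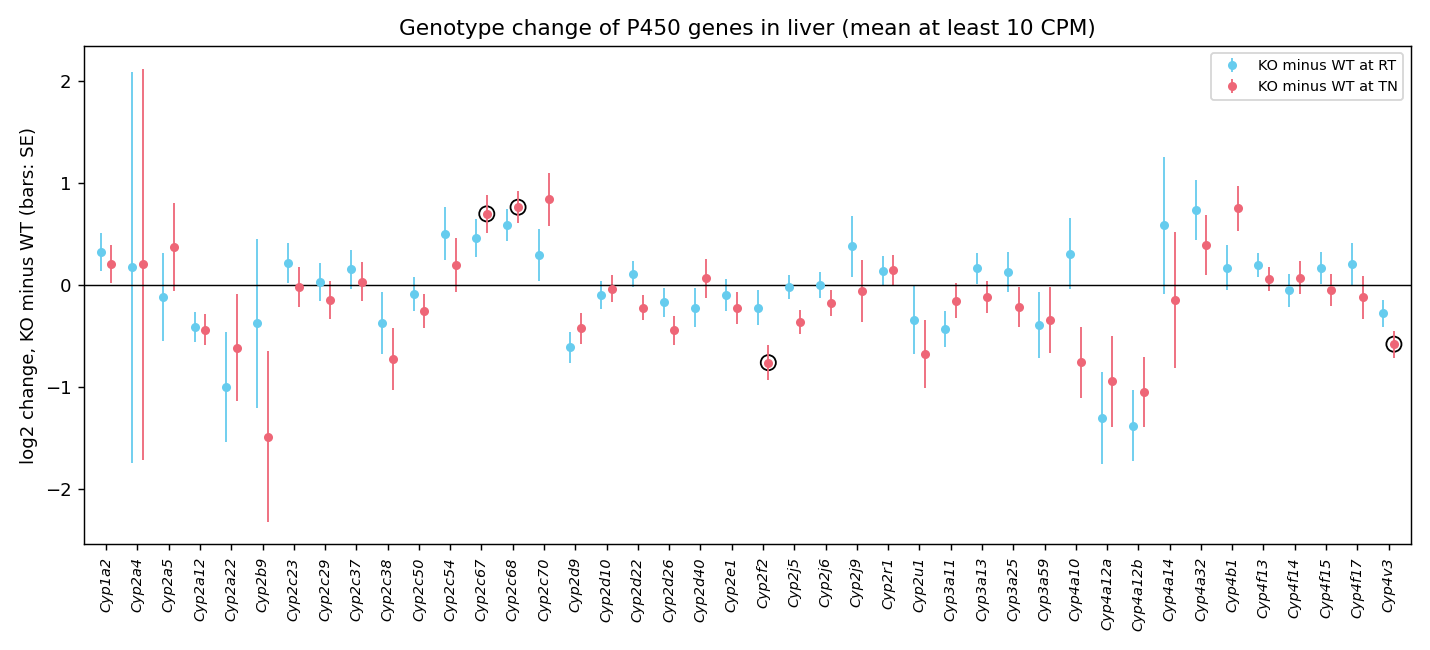
Log2 change, KO minus WT, of each P450 gene with a mean of at least 10 CPM in liver, at RT (blue) and TN (red), with bars of 1 SE; a ring marks the genes called with edgeR. Rings stand only on Cyp2c67, Cyp2c68, Cyp2f2 and Cyp4v3, all at TN, and the wide bars of Cyp2a4 come with 0 to 489 CPM between libraries.

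By subfamily, 10 of 13 Cyp2c genes tested in liver had a positive genotype change at RT, with a median of 0.29, and 8 of 13 at TN, with a median of 0.20. Of 4 Cyp3a genes tested, 2 had a positive and 2 a negative change at RT, from -0.43 to 0.16, and all 4 a negative change at TN, from -0.35 to -0.12, and none was called. The 6 Cyp4a genes tested ran from -1.38 to 0.74 at RT and from -1.05 to 0.39 at TN, with both signs at each temperature. Cyp4a10 and Cyp4a14, the classic PPAR alpha targets of this subfamily, were not called in any liver comparison. Cyp4a14 ran from 65.1 to 628 CPM. Cyp4a10 was at 1047, 430, 872 and 245 CPM in WT TN, with an SD of 374 against 50.1 to 79.9 in the other groups, and at 485, 292, 380 and 373 CPM in KO TN.

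Cyp2a4, Cyp2b9 and Cyp2b13, known to be made mostly in female liver, differed widely between libraries. Cyp3a41a, another such member, was at most 0.02875 CPM in any liver library. Cyp2a4, a steroid hydroxylase, was at 0, 1.01, 1.28 and 489 CPM in KO TN replicates 2, 4, 5 and 22, and at 5.04 to 294 CPM in WT RT. Cyp2b9 ran from 2.43 to 67.6 CPM in WT RT and from 25.6 to 144 CPM in WT TN. Cyp2b13, a neighbour of Cyp2b9, ran from 0 to 10.0 CPM over the 16 libraries. No comparison of genotype or temperature in liver was called for these 3 genes. Cyp2a4 shares 11.2% of its 100-base windows with Cyp2a5, a coumarin hydroxylase at 290 to 1191 CPM in liver, so part of its counts is uncertain.

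No P450 gene in liver passed the edgeR test for housing temperature. In WT, 0 of 58 members were called with edgeR for TN against RT, beside 0.0227% of all genes tested. An unadjusted p under 0.05 was found in 10 members, beside 7.25% of all genes tested. DESeq2 called Cyp2d9, and without WT TN replicate 24 edgeR called 1 member. In KO, 0 of 58 were called, beside 0.114%. An unadjusted p under 0.05 was found in 13 members, beside 10.5% of all genes tested, and 11 of the 13 had the lower mean at TN. DESeq2 called Cyp2j9, Cyp2u1 and Cyp2f2. The interaction gave 0 calls with edgeR. At an unadjusted p under 0.05 it gave 2 members, Cyp2f2 and Cyp4a10, beside 7.33% of all genes tested.

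In WT, 3 members did not overlap between temperatures, beside 3.93% of all genes tested. Cyp2b10, the standard target of CAR, was at 1.34 ± 0.794 CPM at RT and 4.49 ± 1.55 CPM at TN (edgeR adjusted p 0.588). Cyp2d10 was at 695 ± 72.6 and 540 ± 64.0 CPM (edgeR adjusted p 0.479), and Cyp2r1, a vitamin D hydroxylase, at 16.3 ± 1.00 and 13.7 ± 0.826 CPM. In KO, 6 did not overlap, beside 7.25% of all genes tested. Of these, Cyp2f2 had a log2 change of -0.70 (SE 0.17, edgeR adjusted p 0.0855), and Cyp2j9, a relative of Cyp2j5, was at 22.7, 22.2, 17.2 and 19.4 CPM at RT and at 7.51, 9.20, 10.5 and 10.8 CPM at TN (edgeR adjusted p 0.139). Cyp2d9 was at 1029 ± 143 CPM in KO RT and 768 ± 57.3 CPM in KO TN. Cyp2c37, Cyp4f13 and Cyp2a22 had log2 changes of -0.54, -0.29 and 1.54. The RT and TN comparisons share the same 16 libraries with the genotype comparisons, so they are not independent of them.

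Genes that act on or with the P450 enzymes were counted from lists. Of 34 regulators of P450 transcription tested in liver, 2 fell and 0 rose in KO at TN, beside 1.85% of all genes tested called lower and 1.34% called higher, and the median log2 change was -0.16, against 0.05 over all genes. Those 2 were Pparg, with a WT mean of 27.1 ± 6.41 CPM and a KO mean of 11.5 ± 2.27 CPM (log2 change -1.24, edgeR adjusted p 0.0476), and Hlf, a clock-output factor, at 82.9 ± 13.5 and 54.0 ± 5.50 CPM (log2 change -0.62, edgeR adjusted p 0.0208). Hnf4a had a WT mean of 465 ± 47.5 CPM and a KO mean of 319 ± 46.8 CPM without overlap, and it was not called (log2 change -0.55, edgeR adjusted p 0.0629). The receptors Nr1i2 (PXR), Nr1i3 (CAR) and Ahr were not called either.

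Of 20 PPAR alpha targets outside the P450 family, 6 fell in KO at TN and 0 rose, with a list median of -0.58 against 0.05 over all genes. Over all genes tested, 1.85% were called lower and 1.34% higher. Among the 6 were Ehhadh, Hadha and Cpt1a, enzymes of fatty acid oxidation, and the thioesterase Acot2. Ehhadh had a WT mean of 644 ± 152 CPM and a KO mean of 366 ± 29.6 CPM (log2 change -0.82, edgeR adjusted p 0.00626). Of 20 CAR, PXR and AHR targets, 3 fell and 0 rose, beside the same shares, the exporter Abcc3, the dehydrogenase Aldh1a1 and the glucuronosyltransferase Ugt1a1, which was at 268 ± 52.7 and 152 ± 26.2 CPM (edgeR adjusted p 0.00527).

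The next counts also stand beside 1.85% of all genes called lower and 1.34% called higher. Of 18 electron donors and heme genes, 2 fell, Cyb5r3, which reduces cytochrome b5, and Pgrmc2, a heme chaperone. Of 11 partners of the eicosanoid routes tested, 1 fell, the phospholipase Pla2g6. Of 17 sex-biased liver genes outside the P450 family 0 were called, and of 20 acute phase genes 2 rose (Saa3 and S100a8). In the same liver lists, 0 genes were called for KO against WT at RT, for TN against RT in WT, or for the interaction, and 1 acute phase gene, Apcs, rose at TN in KO.

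Over all promoter windows of the RefSeq table, both strands searched, CAAAGTCCA stood in 0.475% of 32851 windows and in 10 of 72 windows (13.9%) of the 65 members that have an entry. TATAAA stood in 13.6% of all and 40.3% of the member windows, and the AHR core GCGTG in 32.4% and 19.4%. The STAT5 motif TTCNNNGAA stood in 8.3% and 5.56%, and the D-box TTANGTAA, the site of Hlf and its relatives, in 2.32% and 1.39%. The perfect DR1 element of nuclear receptors and the palindromic HNF1 motif were in none of the member windows and in 0.0396% and 0.00913% of all. The 10 genes with CAAAGTCCA were Cyp2c40, Cyp2c65, Cyp2c67, Cyp2c68, Cyp2c69, Cyp2c70, Cyp3a11, Cyp3a16, Cyp3a41a and Cyp3a41b, several of them close copies of one another. Of these, 6 were tested in liver, with log2 changes for KO against WT at TN of 1.28 for Cyp2c40, 0.70 for Cyp2c67, 0.76 for Cyp2c68, 1.18 for Cyp2c69, 0.84 for Cyp2c70 and -0.15 for Cyp3a11, and only Cyp2c67 and Cyp2c68 were called. The 2 largest changes come from low genes, Cyp2c40 at a mean of 3.37 CPM (edgeR adjusted p 0.48) and Cyp2c69 at 1.34 CPM (edgeR adjusted p 0.645). Of their 100-base windows, 34.4% and 35.4% are also found in another gene. These are matches of letters and say nothing of binding.

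Between tissues, most members tested had a higher level in liver. CPM in the tissue comparison were scaled over all 48 libraries together, so they differ somewhat from the CPM scaled within a tissue that are given elsewhere. Of 61 members tested over all 48 libraries, 51 were higher and 4 lower in liver than in BAT, beside 31.6% and 37.0% of all genes tested (68.6% in all). Against eWAT 52 were higher and 7 lower, beside 35.5% and 38.3% (73.8% in all). A gene could pass the filter of this fit through 1 tissue alone. Within tissues, 58 members passed the filter in liver, 43 in BAT and 48 in eWAT. For a member that passed through liver alone, a higher liver level follows from the filter, so these counts are a description. The highest liver-to-BAT differences with a mean of at least 1 CPM included Cyp2a22 at 15.0 ± 10.9 CPM in liver and 0 to 0.11 CPM in BAT (SD, 16 liver libraries), and Cyp2b9 at 43.8 ± 42.6 and 0 to 0.40 CPM. Cyp2c40 was at 3.91 ± 3.82 CPM in liver and 0 to 0.0361 CPM in BAT, and Cyp2b13 and Cyp2c39 had no count in any BAT library. Against eWAT they included Cyp3a59, at 49.9 ± 15.2 CPM in liver and 0 to 0.578 CPM in eWAT (log2 difference 8.88, edgeR adjusted p 1.16e-17), Cyp4a32, at 43.5 ± 15.3 and 0 to 1.16 CPM, and Cyp2c40, Cyp2c39 and Cyp2a22, with log2 differences of 8.67, 8.52 and 8.05.

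The members lower in liver than in both fats were Cyp1b1, Cyp4f16 and Cyp4b1. Cyp1b1, which hydroxylates estrogens and polycyclic hydrocarbons and is known mainly outside hepatocytes, was at 1.17 ± 0.957 CPM in liver, 9.17 ± 5.36 CPM in BAT and 25.6 ± 5.20 CPM in eWAT over 16 libraries each. Its log2 differences, liver minus fat, were -3.04 (SE 0.24, edgeR adjusted p 8.33e-15) and -4.73 (SE 0.25, edgeR adjusted p 1.87e-20). Cyp4f16 was at 2.79 ± 1.21 CPM in liver, 8.69 ± 1.51 CPM in BAT and 13.6 ± 1.96 CPM in eWAT. Cyp4b1 differed less, by -0.99 from BAT and -0.37 from eWAT. Cyp2s1 and Cyp4f18, the latter a leukotriene hydroxylase of myeloid cells, were also lower in liver than in eWAT. So were Cyp2b23 and Cyp2j13, which had no count in liver and ran only from 0 to 0.834 and from 0 to 1.88 CPM in eWAT. Without a liver count they could pass the filter only through fat, so the direction of their differences was fixed by it. The Cyp2j13 call was lost with a replicate block (adjusted p 1.0). Cyp2u1, a fatty acid hydroxylase, was lower in liver than in BAT (log2 difference -0.40, edgeR adjusted p 0.00756), a call that was lost with a replicate block (adjusted p 0.0619), and 8.59% of its 100-base windows are also found in 4930534D22Rik.

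In BAT the P450 genes took 0.0228% to 0.114% of the counts, and 43 of 80 members passed the filter. The temperature comparison in WT called 3 of 43 members, 2 higher and 1 lower at TN, beside 32.5% of all genes tested (15.9% higher, 16.7% lower). The median log2 change was 1.26 over the 43 members, 34 of them positive and 9 negative, against 0.11 over all genes tested. Cyp1b1 was at 5.73, 7.64, 4.44 and 4.80 CPM in WT RT replicates 12, 15, 17 and 18 and at 12.2, 18.5, 13.9 and 11.3 CPM in WT TN replicates 1, 6, 7 and 24. The log2 change was 1.30 (SE 0.27, edgeR adjusted p 0.00118), with no overlap.

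Cyp4b1 was at 16.3, 30.8, 17.3 and 15.7 CPM in WT RT and at 57.6, 56.5, 49.3 and 38.7 CPM in WT TN, also apart (log2 change 1.33, SE 0.28, edgeR adjusted p 0.00175). Cyp2u1 fell, from 33.2, 58.8, 51.7 and 64.5 CPM at RT to 26.0, 20.2, 21.1 and 36.4 CPM at TN (log2 change -1.01, SE 0.21, edgeR adjusted p 0.00143). Its groups overlapped, since WT RT replicate 12 lay below WT TN replicate 24. Without WT RT replicate 12 this comparison called 5 members. The 12 macrophage markers summed to 42.1 to 110 CPM in WT RT and 201 to 474 CPM in WT TN, and to 50.7 to 62.1 CPM in KO RT and 169 to 247 CPM in KO TN, so they too were apart between temperatures, with 7 of the 11 tested called higher at TN in each genotype. The 12 stellate cell and fibroblast markers also stood apart, at 350 to 471 CPM in WT RT, 1296 to 2182 CPM in WT TN, 327 to 513 CPM in KO RT and 1043 to 1824 CPM in KO TN, with 7 of 11 called higher in WT and 6 of 11 in KO. Endothelial markers overlapped between temperatures, with 5 of 10 called higher at TN in WT and 1 of 10 in KO, and the 8 cholangiocyte markers, at most 11.1 CPM in sum, had 2 and 1 of 4 called higher. Of 10 adipocyte markers 2 were called higher and 2 lower in WT and 3 higher in KO, and of 10 muscle markers, which ran from 2.06 to 530 CPM in WT RT and from 10.6 to 6884 CPM in WT TN, 0 were called in either genotype. In KO their range was 2.64 to 4607 CPM at RT and 1.96 to 9358 CPM at TN. The 12 hepatocyte markers summed to 19.7 to 375 CPM in WT RT and 115 to 1095 CPM in WT TN. In KO they summed to 8.58 to 841 CPM at RT and 28.3 to 3112 CPM at TN. Their ranges overlapped, their median log2 changes were 1.43 in WT and 1.41 in KO, and 0 were called. The part of these cells in the P450 changes was not tested.

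In KO BAT 2 of 43 members were called, 1 in each direction, beside 15.2% of all genes tested (6.64% higher, 8.52% lower). The median log2 change was 1.005 over the members, 36 of them positive and 7 negative, against 0.04 over all genes tested. Cyp1b1 rose again, from 2.11, 3.65, 3.97 and 3.58 CPM at RT to 7.56, 9.24, 12.0 and 16.2 CPM at TN (log2 change 1.76, SE 0.27, edgeR adjusted p 0.000296). Cyp2d22, a member of the drug-oxidising 2d subfamily, fell from 98.4, 71.5, 63.0 and 64.3 CPM to 53.3, 43.3, 42.2 and 40.6 CPM (log2 change -0.73, SE 0.20, edgeR adjusted p 0.0187). Both sets of groups stood apart. The call of Cyp2d22 was lost without KO RT replicate 9, KO TN replicate 4 or KO TN replicate 5, with adjusted p up to 0.0676, whereas the Cyp1b1, Cyp4b1 and Cyp2u1 calls held in all 21 alternatives. The count in KO was 1 without KO TN replicate 4 and 4 without KO TN replicate 3. The interaction gave 0 calls in BAT with edgeR, and 0 members at an unadjusted p under 0.05, beside 10.2% of all genes tested.

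No member in BAT passed the edgeR test for genotype, with 0 of 43 at RT and 0 of 43 at TN. Of all genes tested, 0.0887% and 0.0% were called. An unadjusted p under 0.05 was found in 5 members at RT and 0 at TN, beside 19.4% and 5.24% of all genes tested. DESeq2 called none either, whereas without WT RT replicate 12 edgeR called 3 members at RT. At RT, Cyp2d22 had a mean of 49.5 CPM in WT against 74.3 CPM in KO (edgeR adjusted p 0.138) and Cyp4v3 a mean of 77.0 against 50.2 CPM (edgeR adjusted p 0.136).

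**Figure D4:**
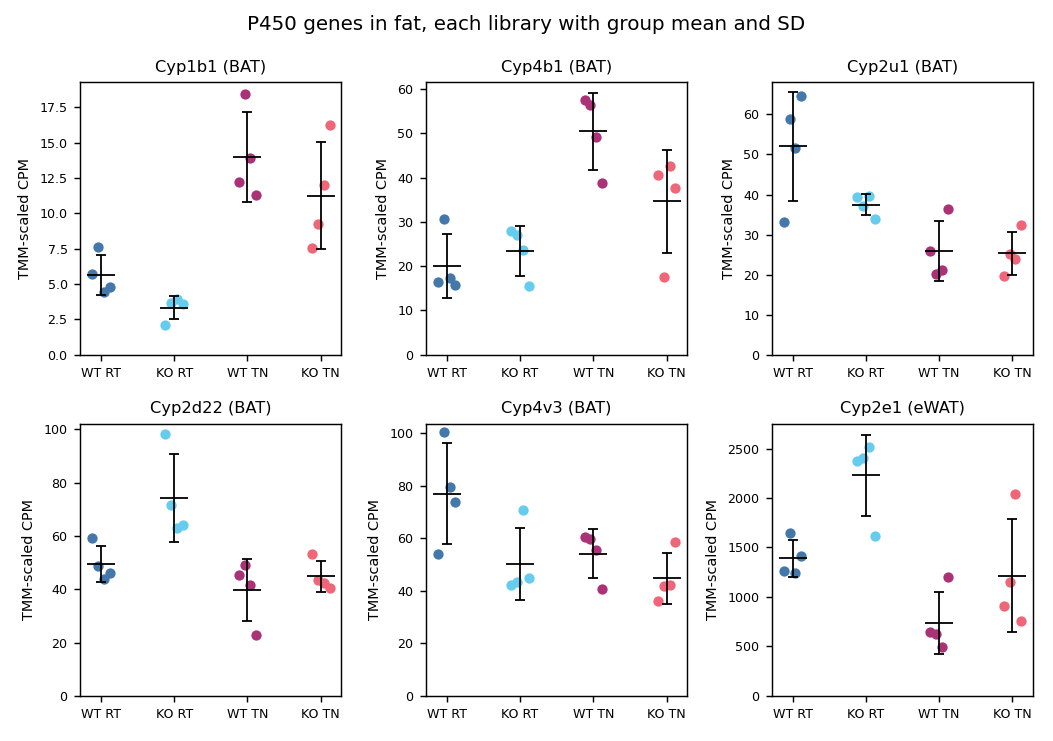
Each library of 5 P450 genes in BAT and of Cyp2e1 in eWAT, in TMM-scaled CPM, in the groups WT RT, KO RT, WT TN and KO TN, with the group mean (dash) and SD (bar). Cyp1b1 in BAT is higher at TN in both genotypes, and Cyp2e1 in eWAT has its highest group mean, 2228 CPM, in KO RT.

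In eWAT Cyp2e1 held 73.3% of the P450 counts and was the only member with a mean of at least 100 CPM. It was at 1264, 1648, 1246 and 1410 CPM in WT RT replicates 12, 13, 15 and 18, at 2379, 2407, 2512 and 1614 CPM in KO RT replicates 9, 10, 16 and 19, at 646, 621, 491 and 1201 CPM in WT TN replicates 6, 7, 8 and 23, and at 908, 1154, 2040 and 758 CPM in KO TN replicates 3, 4, 5 and 21. WT TN lay wholly below WT RT, and the other pairs of groups compared overlapped. None of the differences was called: KO minus WT was 0.68 at RT (SE 0.30, edgeR adjusted p 0.243) and 0.72 at TN (SE 0.30, edgeR adjusted p 0.299), and TN minus RT was -0.91 in WT (SE 0.30, edgeR adjusted p 0.474) and -0.87 in KO (SE 0.30, edgeR adjusted p 0.142).

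Over all 48 eWAT members tested, 0 were called with edgeR in any comparison, beside 4.34% of all genes tested for genotype at RT, 0.586% for genotype at TN, 0.0% for temperature in WT and 1.74% for temperature in KO. At an unadjusted p under 0.05 there were 4, 5, 2 and 19 members in these comparisons. Beside them stood 17.7%, 13.7%, 6.99% and 17.5% of all genes tested. DESeq2 called 1 (Cyp2d22), 1 (Cyp2c23), 0 and 6 members, in the same order. All 19 in the temperature comparison of KO had lower means at TN, and without KO RT replicate 9 edgeR called 1 member there.

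In the fat libraries the P450 genes typical of liver were set beside transcripts of hepatocytes. A set of 43 members, at least 16-fold higher in liver than in eWAT, summed to between 28.7 and 1346 CPM in eWAT and between 38.4 and 501 CPM in BAT. The 12 hepatocyte markers summed to 32.3 to 5636 CPM and 8.58 to 3112 CPM in the same libraries, and no marker was at 0 in a whole group. The Pearson correlation of the log2 sums was 0.957 over the 16 eWAT libraries and 0.878 over the 16 BAT libraries. It is given as a description, since both sums come from the same library. The 43 members were also chosen with these same eWAT libraries. Such a choice favours members with little eWAT signal of their own, so the correlation is no test of where the transcripts come from. In BAT, Cyp2d22 alone, one of the 43, made up 22.9 to 98.4 CPM of TMM-scaled level.

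In eWAT the hepatocyte markers ran from 143 to 5636 CPM in KO RT, highest in replicate 16, and from 59.3 to 603 CPM in KO TN, the same pair of groups in which the 19 members had lower means. The macrophage markers ran from 569 to 786 CPM in KO RT and from 857 to 1043 CPM in KO TN, and those of stellate cells and fibroblasts from 2506 to 2888 CPM and from 3339 to 4195 CPM. Cyp4f14, a leukotriene hydroxylase of liver, had a log2 change there of -4.04 (edgeR adjusted p 0.0823). The part of hepatocyte transcripts in these P450 values was not tested. Cyp1b1 and Cyp4v3 did not follow this pattern in level: on the scale of the eWAT libraries alone, Cyp1b1 ran from 21.9 to 42.8 CPM and Cyp4v3 from 63.4 to 125 CPM over all 16 libraries.

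**Figure D5:**
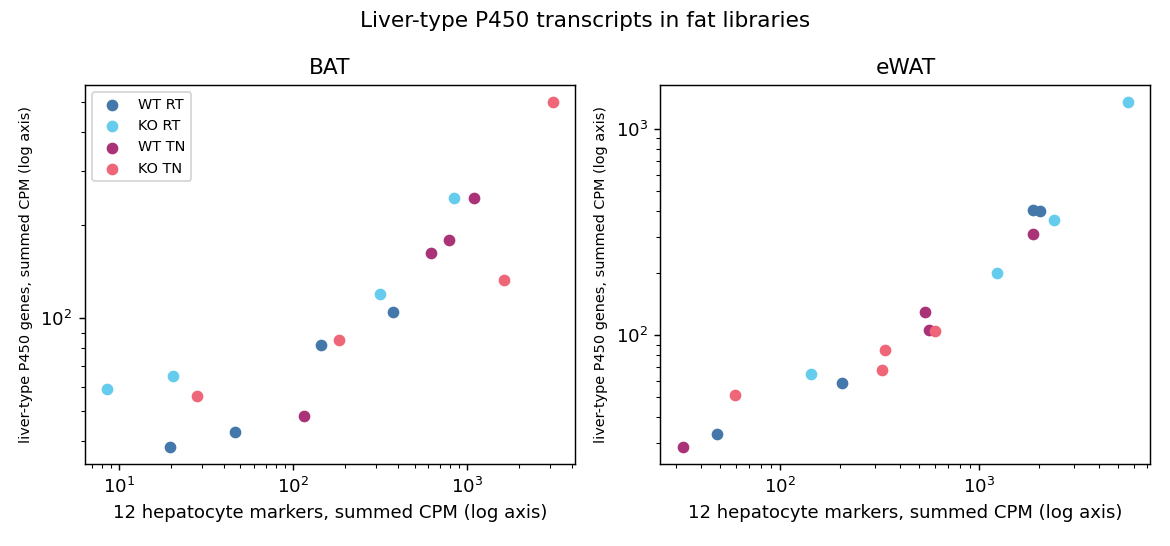
Summed CPM of the 43 liver-type P450 genes against summed CPM of 12 hepatocyte markers, both on log axes, with 1 point for each of the 16 BAT and 16 eWAT libraries, coloured by group. The sums rise together, and the eWAT library with the most hepatocyte markers (KO RT replicate 16, 5636 CPM) has the highest P450 sum, 1346 CPM.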

How the data were processed

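The authors deposited raw read counts per Ensembl gene, 1 table per library. The submitters' processing notes name fastp, STAR 2.6.1d, featureCounts 1.5.0-p3 and the build GRCm38 (mm10); their settings, the annotation release, the use of strand and the treatment of reads matching several genes are not given in the sources used here. Per the labels' protocols, RNA was sequenced paired-end. Symbols were matched for 52073 of 56748 identifiers, and coordinates and exon lengths come from GENCODE M21 (GRCm38).

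Counts were tested with edgeR 4.0.16 in R 4.3.3 (robust quasi-likelihood, scaled by TMM, low genes removed by filterByExpr at its count of 10), 1 fit of 16 libraries per tissue and 1 fit of 48 libraries between tissues, with Benjamini-Hochberg adjustment over all genes. DESeq2 1.42.0 was an alternative, as were other scaling and filters and leaving out each library. Scripts were tested on simulated data. Members called in liver were named, with up to 5 per direction and comparison that had a mean of at least 1 CPM and groups without overlap, beside a fixed list of well-known members; in fat and between tissues, called members with the largest changes were named. Some genes of the lists are not reported here. The members and lists were chosen with earlier results of these data known. Replicate numbers recur across tissues, always with the same genotype and temperature, so same-numbered libraries may come from the same mouse. They correlated by -0.052 to 0.039 in their deviations, which does not tell whether a mouse is shared. The main fit between tissues treated them as independent, and a replicate block was an alternative. Total counts of 23.7 M or more limit precision least for the abundant members; members under 1 CPM rest on few counts.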

Additional observations from a re-analysis of the deposited data

Results flagged for a closer look

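In 2 of the 104 groups of 4 libraries examined, 1 library stood far from the others by Dixon's criterion; chance alone flags about 1 in 20 groups. Both concern Cyp4b1. In liver KO TN, replicate 4 had 24.75 CPM, against 16.44 to 17.52 CPM in the other libraries of the group. In BAT WT RT, replicate 15 had 30.76 CPM, against 15.7 to 17.29 CPM in the others, and the call of Cyp4b1 for TN against RT in WT held in all 21 alternatives, with edgeR or DESeq2 adjusted p from 1.44e-05 to 0.00882. No cause was tested for either library.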

How the results depend on the processing

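No named member changed direction under any alternative run. These members were picked because they were called or had groups without overlap, so leaving out 1 library could hardly reverse them. Of the values that answer a comparison, 448 stayed the same or nearly so and 30 moved. A small change counted as staying. For example, the replicate block called 53 members for liver against BAT where the main fit called 55. A mean P450 share without 1 library lies within the range of its group by construction, so its staying says little. Of the values for named members, 1560 stayed, 23 lost and 12 gained a call. With DESeq2 the number of members called in liver was 3 (main 0) for genotype at RT, 8 (main 4) for genotype at TN, 1 (main 0) for temperature in WT and 3 (main 0) for temperature in KO; in eWAT it was 1 for genotype at RT, 1 for genotype at TN and 6 for temperature in KO (main 0 each). These DESeq2 counts stand without the share of all genes that DESeq2 called, which is not reported here. Without the filter on low counts, or with only the 8 libraries compared, 1 member was called for temperature in KO liver. With only the 8 libraries, 1 was called for genotype at RT in eWAT. With the 10 most abundant genes left out of the totals, the P450 share was 3.194%, 3.048%, 3.147% and 2.942% in liver WT RT, KO RT, WT TN and KO TN, 0.04468%, 0.05552% and 0.07264% in BAT WT RT, KO RT and WT TN, and 0.2284% in eWAT WT RT. The cause was not tested beyond this change of totals.

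Leaving out 1 library gave 0 to 6 calls for genotype at TN in liver (0 without WT TN replicate 6, 6 without WT TN replicate 24), 0 to 1 for temperature in WT liver (1 without WT TN replicate 24), 0 to 3 for genotype at RT in BAT and 3 to 5 for temperature in WT BAT (both highest without WT RT replicate 12), 1 to 4 for temperature in KO BAT (1 without KO TN replicate 4, 4 without KO TN replicate 3) and 0 to 1 for temperature in KO eWAT (1 without KO RT replicate 9). The calls of Cyp2f2 were lost in 3 and of Cyp4v3 in 4 of 21 alternatives, all leave-one-out, with adjusted p up to 0.0634 and 0.0638, and Cyp2c68 in 1, without WT TN replicate 6 (0.0517). Without eWAT WT RT replicate 18 the eWAT counts were still 0.

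With a replicate block in the fit between tissues, 53 members (50 higher, 3 lower) were called for liver against BAT, all 53 among the main 55, and 57 (51 higher, 6 lower) for liver against eWAT. Against BAT the calls of Cyp2u1 (adjusted p 0.0619) and Cyp2s1 (0.0841) were lost there, and against eWAT those of Cyp2j13 (1.0) and Cyp2j9 (0.106). Within a tissue, no paired analysis was possible because the groups share no replicate number. Counts shared between near-identical genes, and members under 1 CPM, limit the precision of single members.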
